A study of Mus musculus with 2 samples.

Results

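Cytosolic ribosomal protein genes encode the proteins that, together with ribosomal RNA, build the large and the small subunit of the ribosome, which makes all proteins outside the mitochondria. They were followed in bone marrow cells of mice fed a high-fat diet and of mice fed chow. Members were all genes whose symbol is Rpl or Rps followed by a digit, plus Rplp0, Rplp1, Rplp2 and Rpsa. The ribosomal S6 kinase genes and symbols that carry -ps were left out. 86 of the 24014 gene symbols fitted this rule, and all 86 were columns in the tables of both libraries. The rule also takes in genes that are not standard ribosome parts, such as Rps19bp1, which encodes a protein that binds ribosomal protein S19, and the paralogues Rpl3l, Rpl39l, Rps27l and Rpl22l1. 85 members had at least 200 UMIs over both libraries. Rpl10l, a paralogue of Rpl10 known from the testis, had 5 UMIs in the HFD library and 2 in the ND library and was counted in no comparison.

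Most ribosomal protein mRNAs begin with a cytosine followed by a stretch of pyrimidines at the very 5′ end, the 5′ terminal oligopyrimidine (TOP) motif, through which the growth-sensing kinase mTORC1 controls their translation. Growing and dividing blood progenitors need many ribosomes, while granulocytes shut down much of their ribosome production as they mature. The marrow is also where shortage of a single ribosomal protein becomes visible as disease: mutations in RPS19 and other family members cause Diamond-Blackfan anaemia, a failure of red cell production.

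The HFD library was made from bone marrow of male wild-type mice of the strain labelled C57B/6, described as young, that had eaten a diet with 60% fat for 16 weeks. The ND library was made from male wild-type C57B/6 mice kept on normal chow for the same 16 weeks. Both were captured on the BD Rhapsody system, which tags each mRNA molecule with a unique molecular identifier (UMI), so that molecules rather than reads are counted. There was 1 library per diet, so diet and library preparation cannot be told apart and no test was possible. How many animals gave marrow to each library, whether it was pooled and whether cells were sorted are not in the labels.

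The HFD library held 17282 cells and 117773643 RNA UMIs, with a median of 3625.5 per cell. The ND library held 16817 cells and 117999042 RNA UMIs, with a median of 3644 per cell. After cells of low quality and doublets were removed, 15218 HFD cells and 13896 ND cells remained. Of all cell barcodes, 329 occurred in both libraries. Cells were clustered without the ribosomal protein genes, so that these did not define the cell groups, and clusters were named from marker genes. 18 named classes, called X-like because only markers name them, and the unnamed clusters 4 and 25 held at least 50 cells in each library. Cluster 4 was led by the progenitor gene Cd34, with Cd93 and F13a1, and cluster 25 by the B lineage genes Vpreb3, Akap12 and Rag1. All intervals below are 95% intervals of the counting error alone, and animals may differ by more.

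The first bases of several transcripts are shown because the results below turn on these genes. RefSeq (build GRCm38.p6) gave a start for 66 of the 86 members. Each sequence runs 5′ to 3′ from 5 bases before the annotated start to 25 bases after it, and capitals mark the first run of at least 5 pyrimidines. Rps27 and Rps27rt encode near-identical proteins and share most of these bases.
Rps27, chr3:90213624-90213653, minus strand: tcgCTCCTTTCCggcggtgacgacctccct
Rps27rt, chr9:114982715-114982744, minus strand: ccttgCTTTCCggcggtgacgacctcccta
Rps9, chr7:3704036-3704065, plus strand: CTCTCTTTgtctcgggcctgagttcgtagg
Rpl12, chr2:32961707-32961736, plus strand: gatccgTCTTTTCggctttcggctcggagg
Rpl14, chr9:120571512-120571541, plus strand: TCTCTCTTCTCgctgagcgccgccaacatg
Rpl18, chr7:45718066-45718095, plus strand: aggccgCTCTTTCCCCgcccactccggcgc
Rpl31, chr1:39367846-39367875, plus strand: gCCTCCCCgtgacccggaagttgtacggct
Rpl37, chr15:5116608-5116637, plus strand: gcggaagcttatccacaggaagtggcgggg
Rpl3l, chr17:24727821-24727850, plus strand: gctctgtcatttgaCCTCTggtgcctggtg
The muscle paralogue Rpl3l has only a short run well inside the window, and the Rpl37 window holds no run, which says only that these letters are absent around this annotated start.

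Around the starts, from 250 bases before to 50 after, the letters CTCTTTC stood on either strand in 27.3% of the 66 members and in 9.28% of 27025 genes. CCGGAAG, the core bound by ETS family factors, stood in 39.4% of members and 9.93% of genes, and AAGATGGC, the YY1 core, in 9.09% and 3.19%. The TATA box letters TATAAA stood in 10.6% of members and 15.7% of genes, and the E-box CACGTG in 9.09% and 8.09%. CCGGAAG and AAGATGGC share the letters AAG, so their matches can overlap, and a match is a description of sequence only. The windows printed above show examples: the Rpl31 window holds ccggaag just behind its pyrimidine run.

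Ribosomal protein mRNA took up a very different part of the transcriptome from class to class, while the order of the classes was nearly the same in both libraries. Over all cells kept, the 86 members made up 12.5% of RNA UMIs in the HFD library and 13.8% in the ND library. T cell-like cells were at the top, with 18.5% in the HFD library and 20.3% in the ND library. Erythroid-like cells, the red cell precursors, had 17.1% in HFD and 17.6% in ND. HSPC-like cells, the stem and early progenitor cells, had 17.0% in HFD and 17.5% in ND. Megakaryocyte-like cells, the platelet precursors, had 16.6% in HFD and 17.4% in ND. These 4 classes differ widely in size: erythroid-like cells held 3518 ribosomal protein UMIs per cell in HFD and 3986 in ND, while T cell-like cells held 683 in HFD and 739 in ND.

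At the other end stood neutrophils, macrophages and plasma cells. Mature neutrophil-like cells had 1.90% in the HFD library and 2.09% in the ND library. Immature neutrophil-like cells had 3.21% in HFD and 3.41% in ND. Macrophage-like cells, which clear debris in the marrow, had 5.55% in both libraries, and plasma cell-like cells, which secrete antibody, had 5.90% in HFD and 6.10% in ND. Per cell, plasma cell-like cells still held 650 ribosomal protein UMIs in HFD and 678 in ND. Their median depth was 11170 UMIs in HFD and 11345 in ND. Between these ends, neutrophil progenitor-like cells had 14.7% in HFD and 15.7% in ND, NK cell-like cells 14.0% in HFD and 14.8% in ND, and innate lymphoid cell-like cells 14.0% in HFD and 14.6% in ND. Pro- and pre-B cell-like cells had 13.7% in HFD and 13.8% in ND, B cell-like cells 11.4% in HFD and 12.0% in ND, and cluster 25 had 9.14% in HFD and 9.55% in ND. Monocyte-like cells had 10.1% in HFD and 11.1% in ND, conventional dendritic cell-like cells 11.9% in HFD and 12.6% in ND, and plasmacytoid dendritic cell-like cells 10.7% in HFD and 11.6% in ND. Basophil or mast cell-like cells had 10.42% in HFD and 10.48% in ND, and unnamed cluster 4 had 16.1% in HFD and 16.9% in ND. In all, 15 of the 20 classes held at least 10% in both libraries.

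**Figure D1:**
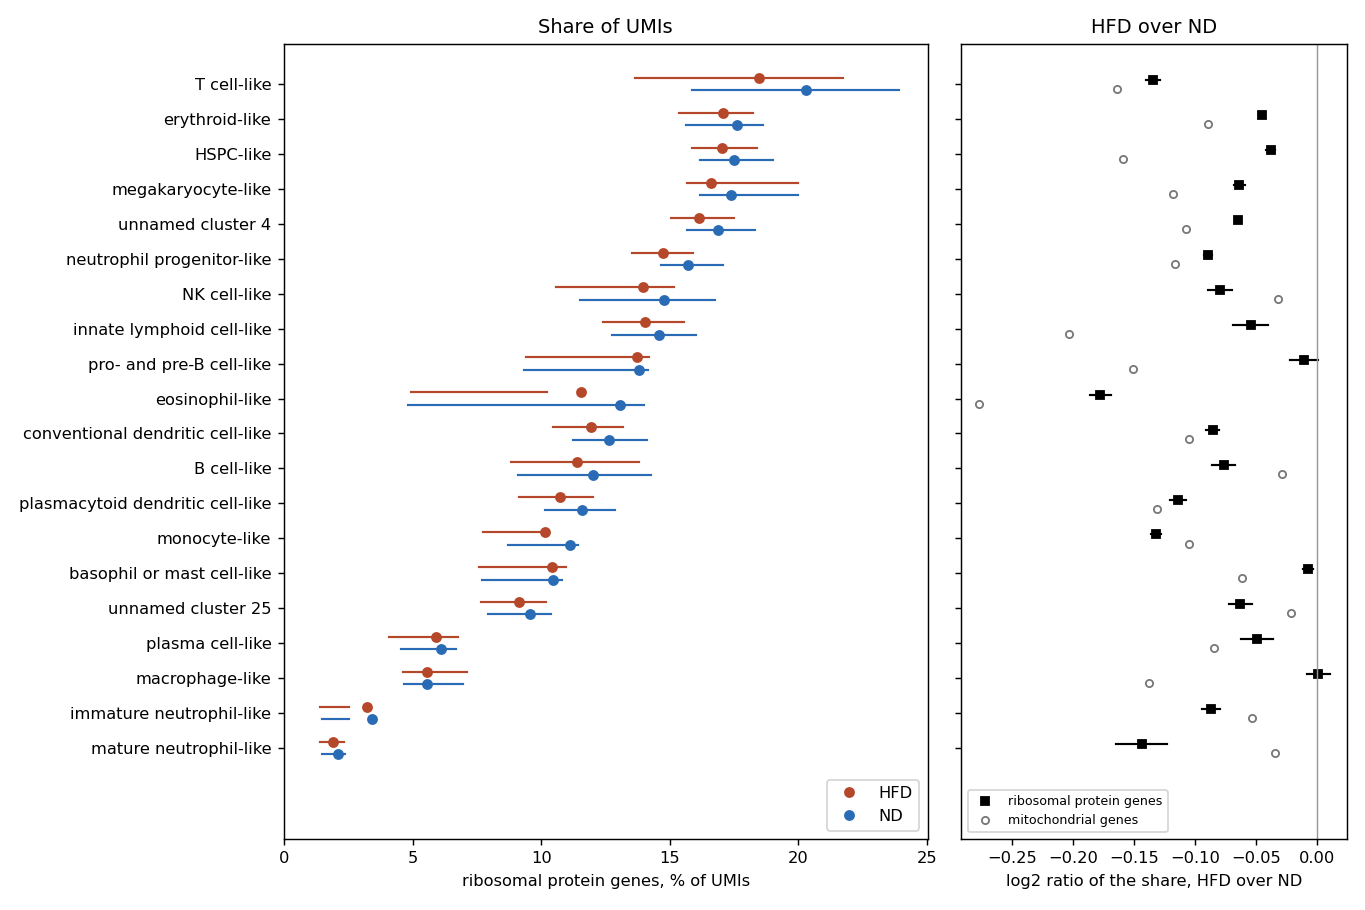
The left panel shows the percentage of RNA UMIs in ribosomal protein genes for each class (dot, pooled share; line, lower to upper quartile of the share per cell), with HFD above ND. The right panel shows log2 HFD over ND of that share (square, with its 95% counting interval) and of the mitochondrial share (open circle); T cell-like cells lie at the top of the left panel at 18.5% in HFD and 20.3% in ND, and most squares lie left of 0.

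The level of single members followed these shares, with few exceptions. Each member's CPM (UMIs per 1e6 RNA UMIs of the class) was set against the unweighted mean of the 20 classes, and a member was counted as higher or lower where it differed at least 1.5-fold the same way in both libraries. In mature neutrophil-like cells 84 of 85 members were lower, against 66.3% of 12293 genes, and in immature neutrophil-like cells 84 were lower, against 61.2% of genes. In macrophage-like cells 77 of 85 were lower, against 41.6% of genes. In plasma cell-like cells 78 were lower, against 69.5% of genes, so here the members' count lies nearer to that of genes in general. The median member of this class lay at a log2 of -1.03 in HFD and -1.04 in ND. The median gene lay lower, at -1.28 in HFD and -1.19 in ND. In T cell-like cells 45 members were higher, against 9.07% of genes, and in erythroid-like cells 41 were higher, against 22.2%. HSPC-like cells had 22 members higher, against 16.6% of genes, and megakaryocyte-like cells 20, against 15.8%. The median member of mature neutrophil-like cells lay at a log2 of -2.89 in HFD and -2.79 in ND, with the median gene at -1.85 in HFD and -1.68 in ND. The 1 member counted as higher in mature neutrophil-like cells was Rpl3l, the paralogue of Rpl3 known from skeletal and heart muscle, where 12.4% of genes were higher.

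The neutrophil lineage spanned a wide range of shares. In cluster 8, the neutrophil progenitor-like cells, a cell held 3259 ribosomal protein UMIs in the HFD library and 3421 in the ND library. The immature clusters followed in steps: cluster 10 had a share of 5.32% in HFD and 5.61% in ND, cluster 21 had 2.16% in HFD and 2.46% in ND, and cluster 22 had 1.47% in HFD and 1.63% in ND. In cluster 30, the mature neutrophil-like cells, a cell held 42.0 ribosomal protein UMIs in HFD and 47.3 in ND, the fewest of these clusters, although its share was above that of cluster 22. The median depth of these cells was 2092.5 UMIs in HFD and 2157 in ND, and its part in the share was not tested. Primary granule genes give a gauge of free progenitor RNA captured with other cells: Mpo stood in mature neutrophil-like cells at 0.47% of its progenitor level in HFD and 0.39% in ND, and Elane at 0.40% in HFD and 0.49% in ND. The ribosomal protein share stood at 12.9% of the progenitor share in HFD and 13.4% in ND. Primary granule genes do not gauge free RNA of other cell types, and the part of free RNA in the share was not tested.

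**Figure D2:**
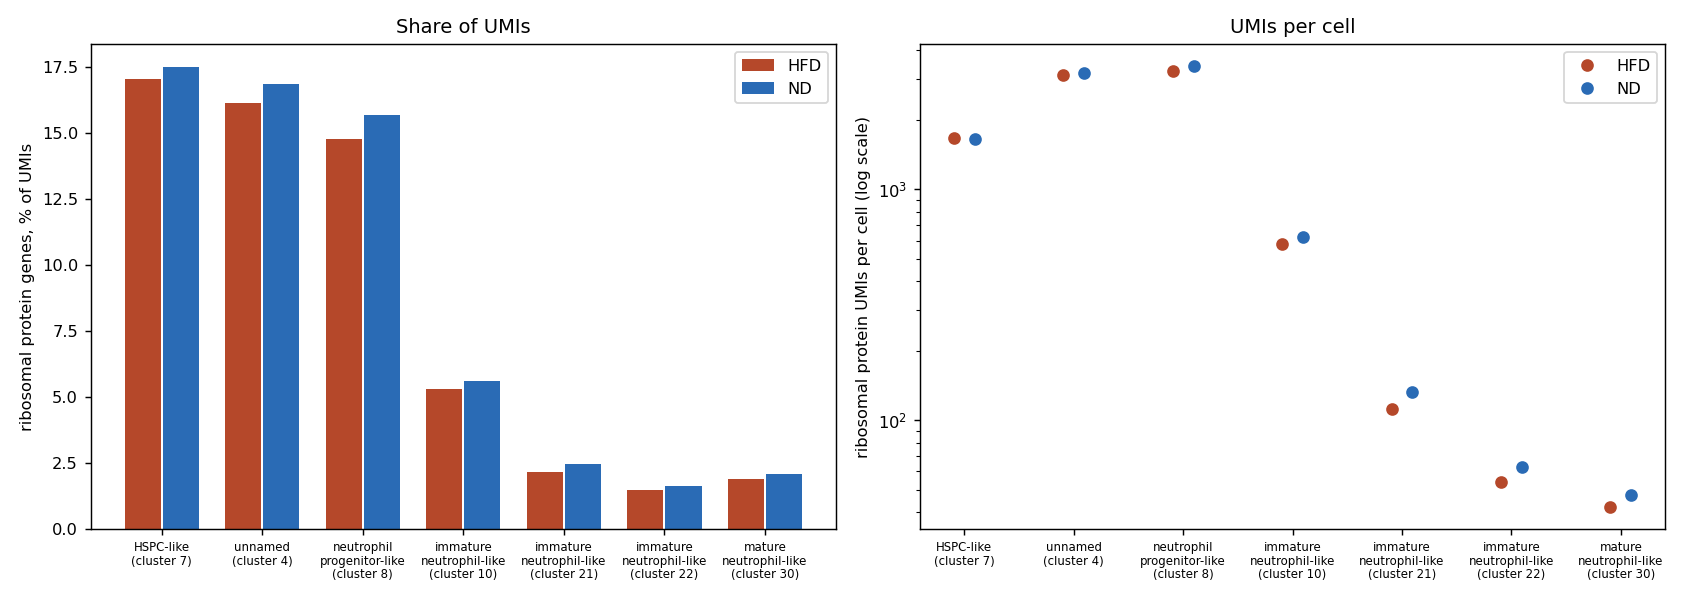
HSPC-like cluster 7, unnamed cluster 4 and the clusters of the neutrophil lineage are set out from left to right, with the percentage of RNA UMIs in ribosomal protein genes as bars and the number of ribosomal protein UMIs per cell on a log axis, HFD left of ND. The share is 14.7% in HFD and 15.7% in ND in cluster 8, against 1.90% in HFD and 2.09% in ND in cluster 30.

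Eosinophil-like cells had a wide spread from cell to cell, with quartiles of the share per cell at 4.94% and 10.2% in HFD and 4.82% and 14.0% in ND. Their pooled share was 11.5% in HFD and 13.1% in ND, while the mean over cells was 7.63% in HFD and 8.88% in ND. When the cells of each library were split by depth into 3 parts of equal number, the deepest part had 13.2% in HFD and 15.2% in ND, and the shallowest 5.41% in HFD and 5.46% in ND. The deepest part held a median of 9904 UMIs per cell in HFD and 11275 in ND, against 1062 in HFD and 1296 in ND in the shallowest. The neutrophil progenitor gene Mpo stood in this class at 24.2% of its progenitor level in HFD and 27.3% in ND. Other primary granule genes stood lower. Ctsg was at 16.3% in HFD and 18.5% in ND, and Elane at 4.16% in HFD and 5.55% in ND. Prtn3 was at 3.17% in HFD and 4.08% in ND. The part of these genes in the pooled share was not tested.

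Between the libraries the share was a little lower in HFD in nearly every class, and in none of the 20 classes by as much as 1.5-fold. It was lower in 19 of 20 classes, in 18 of them with an interval that lay below 0. As log2 of HFD over ND the difference was -0.14 over all cells, -0.18 in eosinophil-like, -0.14 in mature neutrophil-like, -0.13 in T cell-like and -0.13 in monocyte-like cells. Smaller differences stood in HSPC-like (-0.04), erythroid-like (-0.05) and neutrophil progenitor-like cells (-0.09). Eosinophil-like cells, whose share was higher in deeper cells, had a median depth of 1695.5 UMIs in HFD and 2523.5 in ND. The part of depth in their difference was not tested. The mitochondrial share was lower in HFD in all 20 classes, with a log2 of -0.28 in eosinophil-like and -0.16 in T cell-like cells. Its size did not follow that of the ribosomal difference in every class. Mature neutrophil-like cells had a mitochondrial log2 of -0.03, HSPC-like cells -0.16 and macrophage-like cells -0.14. The ribosomal log2 in these classes was -0.14, -0.04 and 0.00, in that order. The part of the mitochondrial share in the result was not tested. The make-up of the libraries also differed, and its part in the value over all cells was not tested. Mature neutrophil-like cells, which hold little ribosomal protein mRNA, numbered 1184 in HFD and 622 in ND. They held 2625366 RNA UMIs in HFD and 1404528 in ND. Erythroid-like cells, with a high share, held 16804341 RNA UMIs in HFD and 25198646 in ND.

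Macrophage-like cells were the exception, with a log2 ratio of 0.00 (interval -0.01 to 0.01). The class joins clusters of unlike share: cluster 17 had 4.93% in HFD and 4.81% in ND, and cluster 29 had 6.87% in HFD and 6.60% in ND. Both were higher in HFD with intervals above 0, and cluster 29 with the higher share held 989 cells in HFD and 1218 in ND. Pro- and pre-B cell-like cells had a log2 ratio of -0.01 with an interval that reached 0.00. Over 9 other ways of counting, the sign turned in 2 for each of these classes. It turned in none for the other 18, of which the unnamed clusters could be followed in 4 settings. With median-of-ratios scaling, a further setting, all 20 classes lay below 0, with macrophage-like cells at -0.02. Plasma cell-like cells, at -0.05 as reported, came close to 0, at -0.0013 with that scaling and -0.008 with a stricter cell filter. Among the 29 clusters with enough cells, 26 were lower in HFD and 3 higher, among them cluster 19 of the basophil or mast cell-like class, with 9.09% in HFD and 9.08% in ND.

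Among the 29 clusters with at least 50 cells in each library, the largest difference stood in erythroid-like cluster 27, the globin-rich cells. Ribosomal protein genes held 3.34% of UMIs in its 114 HFD cells and 5.11% in its 157 ND cells, a log2 ratio of -0.61. Haemoglobin genes held 42.3% of its UMIs in HFD and 27.3% in ND. Without haemoglobin UMIs in the total, the ribosomal share was 5.80% in HFD and 7.03% in ND, a log2 ratio of -0.28 (interval -0.31 to -0.24). The cells also differed in median depth, with 2640 UMIs in HFD and 1328 in ND. Their mitochondrial share was 3.21% in HFD and 5.05% in ND. The part of depth and of the mitochondrial share was not tested. Of 79 members counted in this cluster, 41 were at least 1.5-fold lower in HFD with an interval that left out 0, against 20.3% of genes lower and 2.5% higher. Without haemoglobin UMIs 5 were lower, against 7.23% of genes. The early erythroid-like clusters 0 and 2 differed much less, with 17.5% in HFD and 18.1% in ND in cluster 0, and 17.1% in HFD and 17.4% in ND in cluster 2.

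Single members were compared between the libraries by the same mark: a ratio of at least 1.5-fold with an interval that left out 0, among members with at least 20 UMIs over both libraries in the class. Over all cells, 1 member of 85 passed, Rpl3l, against 2.71% of genes higher and 3.98% lower in HFD. The median member had a log2 ratio of -0.14 and the median gene -0.03, and 77 of 85 members lay below 0, against 55.7% of genes. Within classes, 4 pairs of member and class passed, 1 higher and 3 lower in HFD, while over all pairs of gene and class 2.56% were higher and 2.22% lower. The shift was small for each member and shared by most: 75 of 83 members lay below 0 in T cell-like cells, against 42.3% of genes, and 74 of 84 in monocyte-like cells, against 49.9%. In neutrophil progenitor-like cells 73 of 84 did, against 49.3% of genes, and in erythroid-like cells 65 of 84, against 47.8%. In macrophage-like cells 39 of 83 lay below 0, against 46.3% of genes, and in basophil or mast cell-like cells 43 of 84, against 46.8%, so these counts lie near those of genes in general.

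The 4 pairs concern 1 common member and 2 scarce paralogues. Rpl11, which carries 5S ribosomal RNA into the large subunit and binds Mdm2 when ribosome assembly fails, had 199 UMIs in HFD and 160 UMIs in ND mature neutrophil-like cells. That is 75.8 CPM in HFD and 114 CPM in ND, a log2 ratio of -0.59 (interval -0.90 to -0.28), where 3.89% of genes were lower. Rpl3l had 148 UMIs in HFD and 53 UMIs in ND monocyte-like cells, or 13.05 CPM in HFD and 7.38 CPM in ND, a log2 ratio of 0.82, where 2.77% of genes were higher. Nearly all of these UMIs came from monocyte-like cluster 20, with 145 in HFD and 51 in ND. Within that cluster the level of Rpl3l was 40.9 CPM in HFD and 33.2 CPM in ND, a log2 ratio of 0.30, which did not pass, and the cluster held 1080 cells in HFD and 481 in ND. Rpl39l, a paralogue of Rpl39 known from male germ cells, had 13 UMIs in HFD and 30 UMIs in ND neutrophil progenitor-like cells, from 2 HFD cells and 5 ND cells, where 1.99% of genes were lower. It had 3 UMIs in HFD and 17 UMIs in ND megakaryocyte-like cells, from 1 HFD cell and 4 ND cells, where 2.37% of genes were lower.

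A few members stood apart from the common direction. Rpl37, a zinc-binding protein of the large subunit, was higher in HFD in all 20 classes. Over all cells it had 1706 CPM in HFD and 1454 CPM in ND, a log2 ratio of 0.23. Rpl37 had 687 CPM in HFD and 496 CPM in ND in mature neutrophil-like cells, 1906 CPM in HFD and 1573 CPM in ND in neutrophil progenitor-like cells, and 2262 CPM in HFD and 1841 CPM in ND in T cell-like cells. It had 2415 CPM in HFD and 1982 CPM in ND in erythroid-like cells and 1501 CPM in HFD and 1135 CPM in ND in basophil or mast cell-like cells. Its log2 ratio ranged over classes from 0.04 in eosinophil-like cells to 0.47, with a median of 0.33, so none of these ratios passed the 1.5-fold mark. Among clusters of the erythroid-like class, globin-rich cluster 27 had 150 UMIs of Rpl37 in HFD and 162 in ND, a log2 ratio of -0.01.

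Rpl18, a core protein of the large subunit, was higher in HFD in 19 of 20 classes, with a median log2 ratio of 0.17. It had 342 CPM in HFD and 248 CPM in ND in macrophage-like cells (log2 0.47) and 1229 CPM in HFD and 1112 CPM in ND in T cell-like cells (0.14). In mature neutrophil-like cells Rpl18 had 113 CPM in HFD and 116 CPM in ND (-0.04). The p53-induced paralogue Rps27l was higher in 19 of 20 classes (median 0.15), Rps19bp1 in 16 of 17 (0.27), Rps29 in 17 of 20 (0.04), Rpl7l1 in 17 of 20 (0.05) and Rps27 in 15 of 20 (0.05). Of 5021 genes counted in every class, 0.538% were higher in all 20 and 2.09% in at least 19. On the other side, 17 of 80 members counted in every class were lower in all 20, against 0.697% of genes. Among these were Rpl3, Rpl4, Rpl8, Rpl17, Rpl29, Rpl30, Rpl32, Rpl34, Rpl35, Rpl36a, Rpl39, Rplp1, Rps3, Rps3a1, Rps19 and Rps25. Rpl17 and Rpl8 had the lowest medians among them, both at -0.18.

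**Figure D3:**
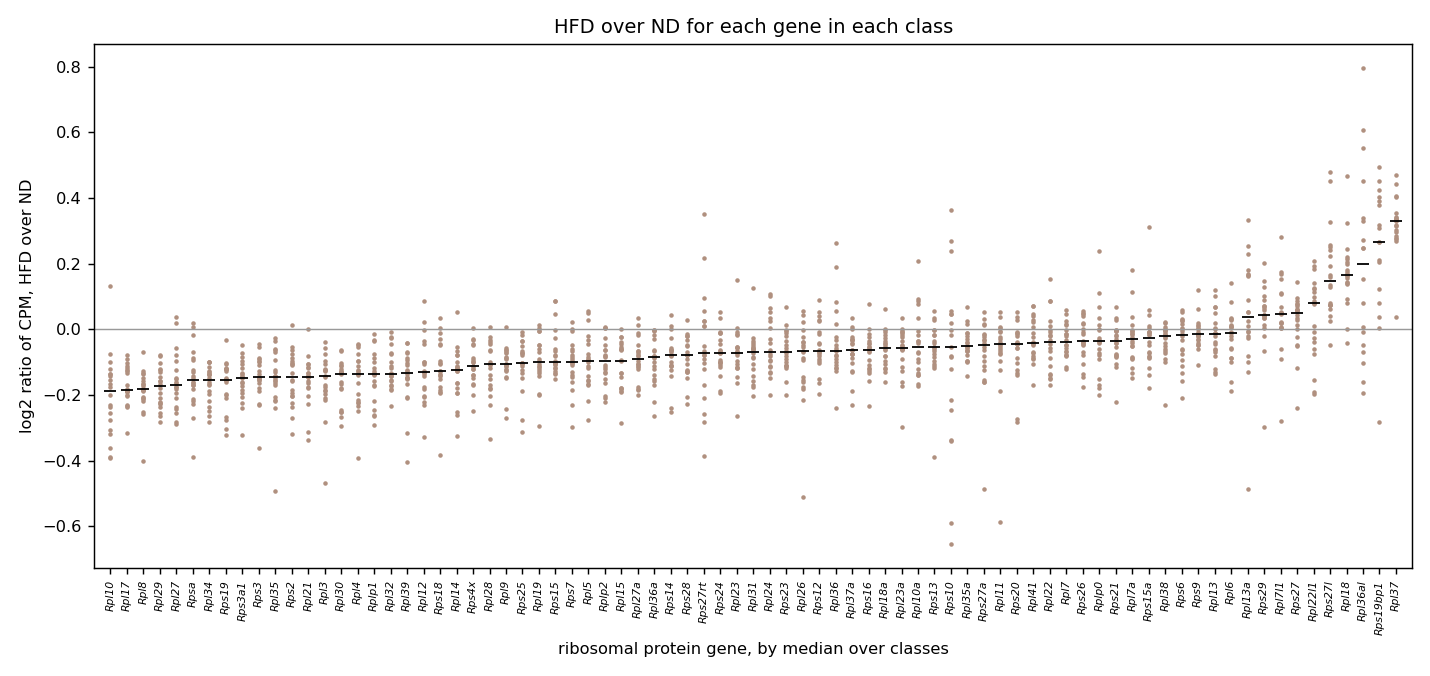
Each of 79 members is a column, ordered by its median log2 HFD over ND; points are classes and bars are medians over at least 15 classes. Rpl37 stands at the right end with every class above 0 (median 0.33), while Rpl17 and Rpl8 lie near the left end with every class below 0.

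In the classes with most UMIs the ends of the order were much the same, taken here among members with at least 200 UMIs over both libraries in the class. In erythroid-like cells the lowest log2 ratios, -0.17 to -0.15, included those of Rpl34, Rps2, Rpl10 and Rpsa, and the highest, 0.17 to 0.34, were those of Rpl18, Rpl7l1, Rps19bp1, Rpl37 and Rpl36al. Neutrophil progenitor-like cells had Rpl10, Rpl8, Rps19, Rpl17 and Rpl34 lowest and Rps27l, Rpl18, Rps19bp1, Rpl22l1 and Rpl37 highest. Cluster 4 had Rpl8, Rpl34, Rpl17, Rpl10 and Rps19 lowest and Rps27l, Rpl18, Rpl36al, Rps19bp1 and Rpl37 highest. Immature neutrophil-like cells had Rpl27, Rpl29, Rplp1 and Rpl8 among the lowest and Rps29, Rps27l, Rpl18, Rpl13a and Rpl37 highest. Basophil or mast cell-like cells had Rpl8, Rpl17, Rpl34 and Rps19 among the lowest and Rpl36al, Rpl7l1, Rpl13a, Rpl18 and Rpl37 highest. Monocyte-like cells had Rpsa, Rpl8, Rplp1, Rpl35 and Rpl17 lowest and Rps27l, Rpl18, Rpl7l1, Rpl37 and Rpl3l highest. Rpl37 and Rpl18 were among the 5 highest in all 6 classes, and no ratio in this paragraph other than that of Rpl3l in monocyte-like cells passed the 1.5-fold mark.

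Among the members with most UMIs over all cells were Rps12 with 3915 CPM in HFD and 4372 CPM in ND, Rps29 with 3062 CPM in HFD and 3069 CPM in ND, Rps9, Rps26 and Rplp1. UMIs count molecules caught by their tail and were not divided by transcript length. Levels of different members are therefore set side by side only as counts, and shared sequence, described below, also bears on them.

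Set against the family's own total, few members lay far from the mean of classes in most classes, and more did in mature neutrophil-like cells. Here a member's UMIs are given per 1000 ribosomal protein UMIs of the class, and higher or lower again means at least 1.5-fold from the mean of classes in both libraries. In mature neutrophil-like cells 9 of 85 members were higher, against 46% of genes on this scale, and 28 were lower, against 26.3%. On this scale members sum to 1000 in every class, while other genes rise where the ribosomal protein share is low. The percentages of genes therefore follow the class shares in part by construction and cannot gauge the members. They are given beside the counts as a description only. No other class had more than 3 higher or 6 lower. In those classes 2.46% to 47.2% of genes were higher and 20.8% to 75.9% lower. Rps9, a small-subunit protein placed early in assembly, reached 99.8 per 1000 in HFD and 86.4 per 1000 in ND mature neutrophil-like cells. In neutrophil progenitor-like cells Rps9 had 20.2 per 1000 in HFD and 19.2 per 1000 in ND. The intermediate clusters lay between: Rps9 had 30.8 per 1000 in HFD and 28.9 per 1000 in ND in cluster 10, 62.5 in HFD and 57.0 in ND in cluster 21, and 83.6 in HFD and 78.3 in ND in cluster 22. As a level, Rps9 had 1892 CPM in HFD and 1810 CPM in ND in mature cells, against 2979 CPM in HFD and 3011 CPM in ND in progenitor-like cells. Rps12, one of the most abundant members, had 575 CPM in HFD and 565 CPM in ND in mature cells, against 5191 CPM in HFD and 5528 CPM in ND in progenitor-like cells.

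Rps27, another small-subunit protein with a zinc finger, had 54.9 per 1000 in HFD and 54.0 per 1000 in ND mature neutrophil-like cells, against 14.4 in HFD and 13.4 in ND progenitor-like cells. Rps27a, which is made as a fusion with ubiquitin, had 44.0 per 1000 in HFD and 55.8 per 1000 in ND, with a mean over classes of 20.3 in HFD and 20.7 in ND. As a level, Rps27a had 834 CPM in HFD and 1168 CPM in ND in mature neutrophil-like cells, a log2 ratio of -0.49. Rpl37 had 36.2 per 1000 in HFD and 23.7 per 1000 in ND in mature neutrophil-like cells. The others counted as higher were Rpl3l, Rpl7l1, Rpl9, Rps25 and Rps27rt. At the low end, Rpl12, which sits at the base of the stalk that recruits elongation factors, had 2.91 per 1000 in HFD and 3.09 per 1000 in ND. Rpl14 had 2.13 per 1000 in HFD and 2.41 per 1000 in ND, and Rpl3, near the peptidyl transferase centre, had 1.93 in HFD and 2.41 in ND. The highest classes for Rpl12, Rpl14 and Rpl3 were T cell-like (12.9 in HFD and 13.5 in ND), erythroid-like (9.50 in HFD and 9.71 in ND) and HSPC-like cells (7.62 in HFD and 8.11 in ND). Both libraries gave the same picture: the log2 ratio of mature over progenitor-like cells had a Pearson r of 0.979 and a Spearman rho of 0.973 between HFD and ND over the 80 members with at least 10000 UMIs. That is a description across genes, which share libraries, cell groups and depth.

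**Figure D4:**
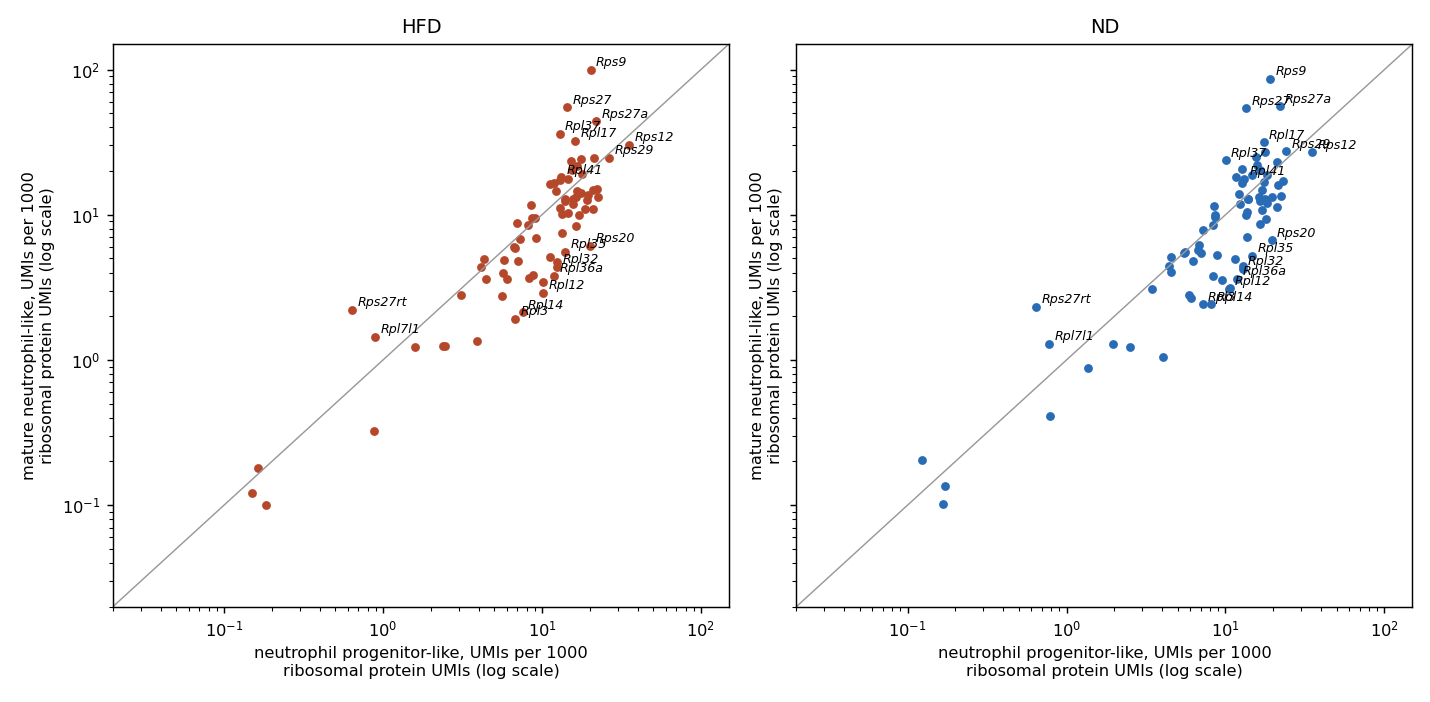
Each point is 1 of 79 members, with UMIs per 1000 ribosomal protein UMIs in neutrophil progenitor-like cells on the x axis and in mature neutrophil-like cells on the y axis, both on log axes, HFD left and ND right; the line marks equal values. Rps9 lies far above the line at 99.8 per 1000 in HFD and 86.4 in ND, and Rpl12, Rpl14 and Rpl3 lie below it. The scarce Rpl3l, counted as higher in mature neutrophil-like cells, is not drawn.

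Several members stood out in other lineages. Rpl31 had 32.9 per 1000 in HFD and 35.0 per 1000 in ND in plasmacytoid dendritic cell-like cells, the type I interferon producers, against a mean over classes of 14.3 in HFD and 14.4 in ND. In that class 8.81% of genes were higher on this scale. As a level that is 3526 CPM in HFD and 4060 CPM in ND, while conventional dendritic cell-like cells had 1721 CPM in HFD and 1851 CPM in ND of Rpl31. Rps27 was high in several lymphoid classes as well as in mature neutrophil-like cells. It had 38.1 per 1000 in HFD and 35.2 per 1000 in ND in innate lymphoid cell-like cells and 34.8 in HFD and 32.8 in ND in T cell-like cells, against 11.5 in HFD and 12.0 in ND in eosinophil-like cells. Rps27 and its near copy Rps27rt were both counted as higher in innate lymphoid cell-like cells, where 6.31% of genes were higher, and in B cell-like cells, where 6.67% were. Rps27 was counted as lower in eosinophil-like cells, where 39.5% of genes were lower.

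In erythroid-like cells Rps2, Rpl13a and Rps27l were counted as higher, where 8.72% of genes were. Rps2 had 14.4 per 1000 in HFD and 15.5 per 1000 in ND, against 5.12 in HFD and 4.93 in ND in mature neutrophil-like cells. Rpl13a, known in human cells for interferon-controlled translation, had 1.54 per 1000 in HFD and 1.496 per 1000 in ND. In eosinophil-like cells, with 4.61% of genes higher, both Rplp0, with 14.6 per 1000 in HFD and 13.2 per 1000 in ND, and Rplp2, with 25.9 per 1000 in HFD and 23.3 per 1000 in ND, were counted as higher, and both belong to the stalk. Macrophage-like cells, with 34.9% of genes higher, had 35.1 per 1000 of Rplp1 in HFD and 38.4 per 1000 in ND. Plasma cell-like cells, with 9.79% of genes higher, had 21.3 per 1000 of Rpl41, the shortest ribosomal protein, in HFD and 21.1 in ND. The 10 members with the widest log2 range over classes were Rpl36al, Rps27l, Rpl7l1, Rps9, Rps27, Rpl12, Rpl14, Rpl13a, Rpl10a and Rpl3. Rpl10a had its top value in erythroid-like cells, 4.50 per 1000 in HFD and 4.47 in ND, and its lowest in mature neutrophil-like cells, 1.35 in HFD and 1.05 in ND.

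**Figure D5:**
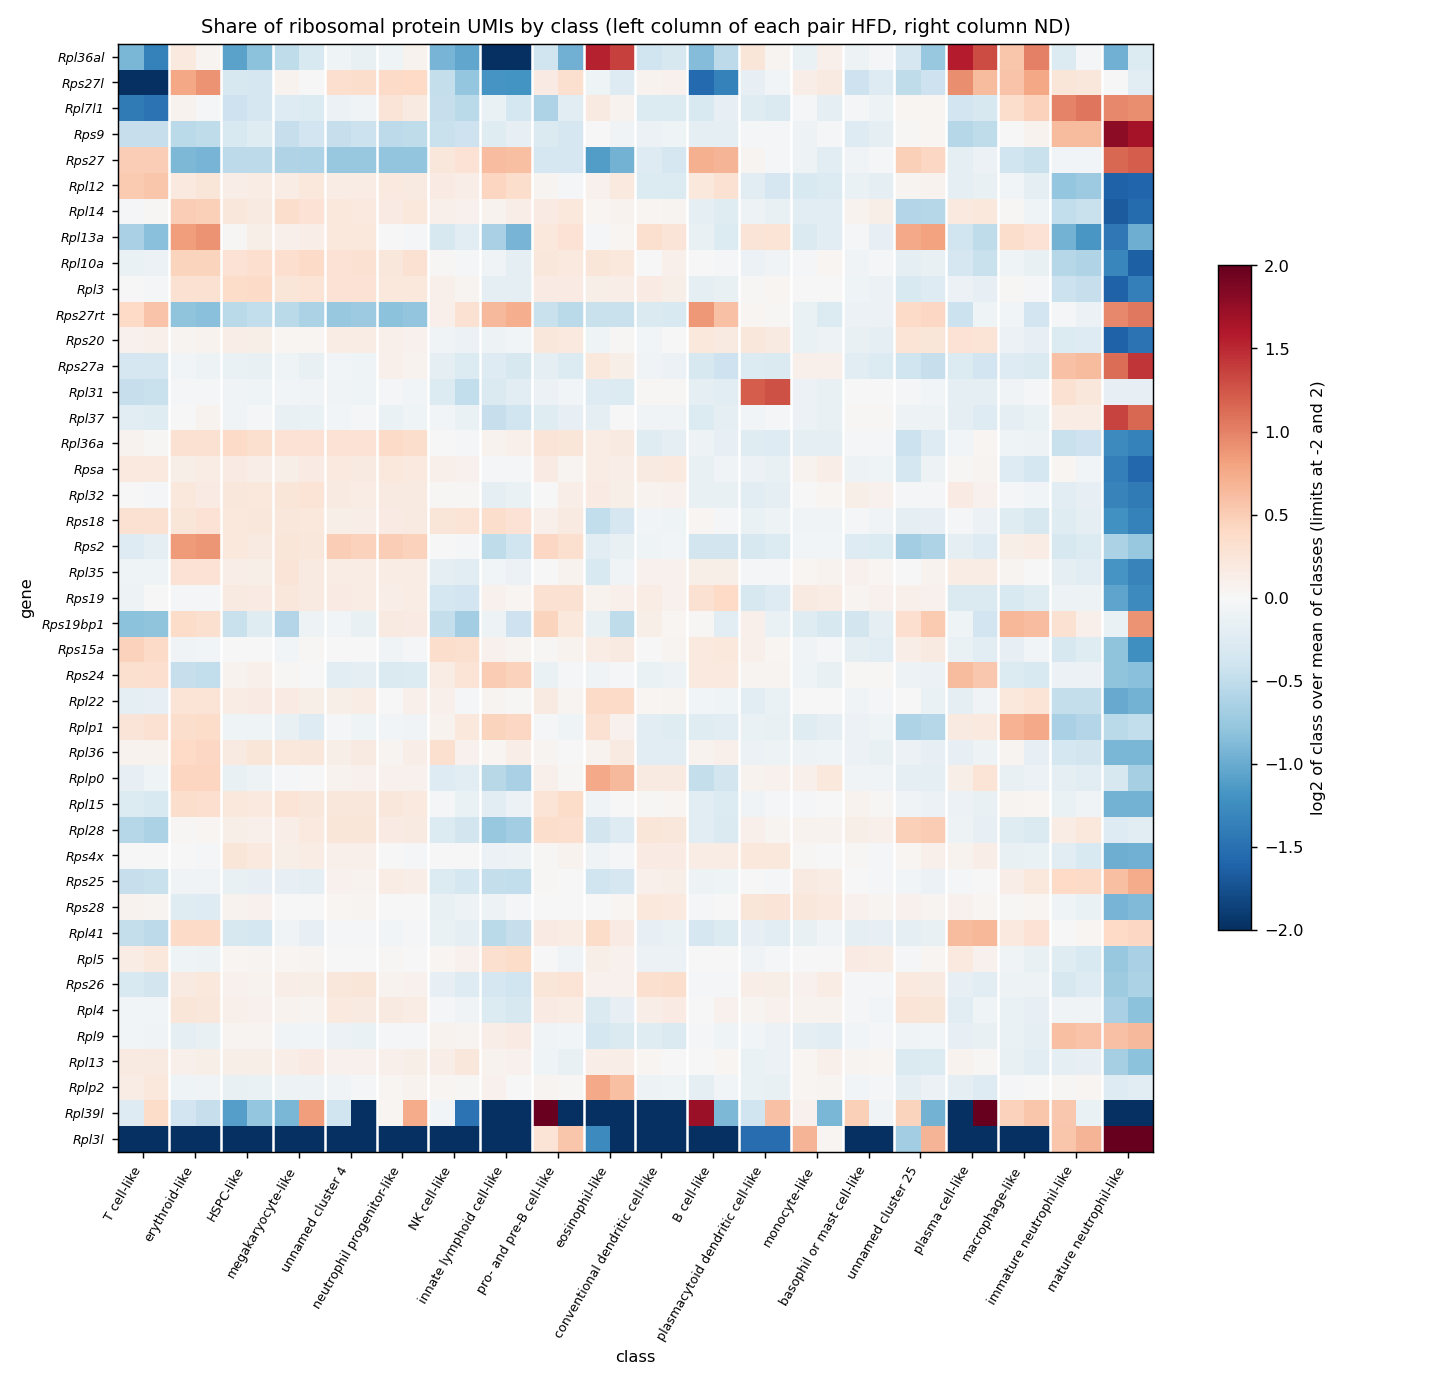
The heat map shows 43 members (rows) among those that were at least 1.5-fold from the mean of classes in at least 1 class, with a column for each class and library (HFD left, ND right). Colour is log2 of the member's share of ribosomal protein UMIs over the mean of classes, cut at the ends of the scale; the mature neutrophil-like columns hold most of the strongly lower members and 9 higher ones.

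The paralogues had fewer UMIs than their parent genes, and Rps27l, Rpl36al and Rpl7l1 varied more from class to class than Rps27, Rpl36a and Rpl7. Rps27l, induced by p53, had 2.08 per 1000 in HFD and 1.93 per 1000 in ND in erythroid-like cells, against 0.31 in HFD and 0.23 in ND in T cell-like cells. Its parent Rps27 ran the other way, being counted as lower in erythroid-like cells, where 62% of genes were lower on this scale. Rpl36al, a copy of Rpl36a, had 0.57 per 1000 in HFD and 0.42 per 1000 in ND in eosinophil-like cells and 0.03 in both libraries in innate lymphoid cell-like cells, from only 2 UMIs in HFD and 3 UMIs in ND, no more than a floor of 3, so the low end of its range is uncertain. Rpl7l1, which acts in making the large subunit, had 1.46 per 1000 in HFD and 1.44 per 1000 in ND in immature neutrophil-like cells, against 0.28 in HFD and 0.24 in ND in T cell-like cells. The parent gene Rpl7 varied little, between 8.29 in HFD and 7.81 in ND in T cell-like cells and 12.2 in HFD and 12.3 in ND in cluster 25. Rpl22l1 and its parent Rpl22 both had their highest share in eosinophil-like and their lowest in mature neutrophil-like cells. Rpl22l1 had 2.63 per 1000 in HFD and 2.39 in ND at the top, and Rpl22 had 7.29 in HFD and 7.10 in ND.

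Rpl3l was scarce, and among the classes its level was highest in mature neutrophil-like cells. It had 21.3 CPM in HFD and 18.5 CPM in ND there, from 56 UMIs in HFD and 26 in ND. Monocyte-like cluster 20, taken by itself, had a higher level of Rpl3l in both libraries, as given above. Pro- and pre-B cell-like cells had 13.3 CPM of Rpl3l in HFD and 13.2 CPM in ND, and immature cluster 22 had 9.42 CPM in HFD and 7.93 CPM in ND. In macrophage-like cells Rpl3l had 0 UMIs in both libraries, which allows up to 0.94 CPM in HFD and 0.96 CPM in ND. In NK cell-like cells it also had 0 UMIs in both, which allows up to 3.30 CPM in HFD and 1.87 CPM in ND. The parent Rpl3 was measured in every class, with 833 CPM in HFD and 983 CPM in ND over all cells. Rpl39l had 101 UMIs in HFD and 141 UMIs in ND over all cells, against 306194 in HFD and 339589 in ND for Rpl39. Rps19bp1 had 16.7 CPM in HFD and 15.5 CPM in ND over all cells, against 1065 CPM in HFD and 1239 CPM in ND for Rps19, the protein it binds.

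Members tied to disease and to special parts of the ribosome followed the family between the libraries. Of the 19 Diamond-Blackfan anaemia genes 17 had a log2 ratio below 0 over all cells, with a median of -0.14, the same as over all members. Rps19, the gene most often mutated in that disease, had 1065 CPM in HFD and 1239 CPM in ND, a log2 ratio of -0.22, and was lower in all 20 classes. Rpl5 had 2096 CPM in HFD and 2336 CPM in ND (-0.16), and Rpl11, its partner in the particle with 5S RNA, had 705 CPM in HFD and 761 CPM in ND (-0.11). Among the others, log2 ratios over all cells were -0.18 for Rps10, -0.12 for Rps26, -0.09 for Rpl35a, -0.12 for Rps24 and -0.16 for Rps7. They were -0.15 for Rpl26, -0.12 for Rps28, -0.19 for Rpl15, -0.23 for Rpl27, -0.12 for Rps15a, -0.23 for Rpl35 and -0.16 for Rpl31. Rps29 was just below 0 at -0.0035, and the 2 above 0 were Rps27 at 0.01 and Rpl18 at 0.09.

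The stalk, which docks elongation factors, had a median log2 ratio of -0.20 over all cells, with -0.15 for Rplp0, -0.26 for Rplp1, -0.17 for Rplp2 and -0.23 for Rpl12. None passed the 1.5-fold mark. The subunits kept their balance: the large subunit held 50.7% of ribosomal protein UMIs in HFD and 51.2% in ND over all cells. Mature neutrophil-like cells had the lowest large-subunit part, 46.8% in HFD and 46.0% in ND.

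Other genes of the translation machinery are given over all cells, where the median gene lay at a log2 ratio of -0.03 and 55.7% of genes lay below 0. Values over all cells, here and above, also carry the make-up of the libraries. Erythroid-like cells held 16804341 RNA UMIs in HFD and 25198646 in ND, and mature neutrophil-like cells numbered 1184 in HFD and 622 in ND. The part of this make-up in them was not tested. The elongation factors had a median log2 ratio of -0.13 over all cells, with 5 of 6 below 0. Eef1a1, which brings transfer RNAs to the ribosome, had 5749 CPM in HFD and 6323 CPM in ND (-0.14), and Eef1b2, its exchange factor, was at -0.22. Of 16 other genes with TOP mRNAs, 13 were counted and 13 lay below 0, with a median of -0.10. They include Eif3f at -0.27, Hnrnpa1 at -0.26 and the nucleolar Npm1. The 22 initiation factors had a median of -0.07, with 17 below 0 and Eif3m lowest at -0.22. Rack1, a small-subunit protein whose symbol the rule does not take, had 866 CPM in HFD and 1012 CPM in ND (-0.23).

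Genes that make ribosomes lay slightly below 0 over all cells as well, with the same limit. Of 36 ribosome biogenesis genes 30 were below 0, against 55.7% of genes, with a median log2 ratio of -0.09 and Nmd3, the export adaptor of the large subunit, at -0.25. RNA polymerase I, which transcribes ribosomal RNA, had a median of -0.07, with Polr1b at -0.27 and its upstream factor Ubtf at -0.17. Genes that control TOP mRNAs through mTORC1, with Myc factors, had a median of -0.01. Among these Ddit4, an inhibitor of mTORC1, was at 0.34, Max at 0.22, Mycn at -0.31 and Myc at -0.30. The 10 p53 targets linked to ribosome stress had a median of 0.14, with Sesn2 at 0.36, Bbc3 at 0.32 and Phlda3 at 0.22 above 0, and Ccng1 at -0.23 below it. None of these lists held a gene past the 1.5-fold mark over all cells. Over all classes, 32 of 2139 pairs of list gene and class were higher in HFD and 14 lower, or 1.5% and 0.655%, against 2.56% of all pairs of gene and class higher and 2.22% lower. Of the 36 biogenesis genes, 6 were higher in NK cell-like cells, where 4.42% of genes were higher: Bop1, Wdr12, Mybbp1a, Tsr1, Utp4 and Sbds. In these 220 HFD cells and 416 ND cells the list had a median log2 ratio of 0.33 with 8 of 36 below 0, while the median gene was at 0.03. Ddit4 passed in T cell-like, conventional dendritic cell-like, macrophage-like and monocyte-like cells, each time higher in HFD, where 3.48%, 2.43%, 3.63% and 2.77% of genes were higher in that order of classes.

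Ribosomal protein genes have many copies in the genome, so UMIs of near-identical sequences may be split between columns. In transcripts of the GENCODE M21 annotation, a median of 34.0% of a member's 50-base words also occurred in another gene. In 23 members over 50% did, and in 4, Rpl39l, Rpl3l and Rps19bp1 among them, none did. Rps27rt shared 91.1% of its words, most with Rps27, so levels of this pair are uncertain against each other. Rpl36a shared 85.5% and Rpl10 73.7%, while Rpl37 shared 31.3%, Rpl18 13.1% and Rps9 12.4%. The 7 columns with a -ps symbol, which the rule leaves out, held 66384 UMIs in HFD and 66788 UMIs in ND, or 0.479% of the members' UMIs in HFD and 0.440% in ND. Rpl10-ps3 alone had 27758 UMIs in HFD and 25256 in ND, beside 44106 in HFD and 51182 in ND for Rpl10, so the 2 columns lay on opposite sides. Over the 80 members with at least 10000 UMIs, the share of words in other genes had a Pearson r of -0.10 and a Spearman rho of -0.07 with the log2 ratio of HFD over ND. Coding length had an r of -0.28 and a rho of -0.27 with it, across genes that share libraries and total.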

How the data were processed

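Bone marrow cells of 2 libraries (HFD and ND) were analysed. The authors deposited counts, that is RSEC-corrected UMIs per gene and cell, from the BD WTA Rhapsody Analysis Pipeline, version 1.9.1, run on a custom reference per the file headers. The genome build is not given in the sources used here. Genes were joined by symbol. Cells under 200 genes or over 25% mitochondrial UMIs were dropped, and Scrublet doublets (expected rate 5%) were removed. Clustering used scanpy 1.11.5 (Python 3.11.15, leidenalg 0.10.2), counts scaled to 10000 per cell, 2000 variable genes without ribosomal protein genes, 30 components, 15 neighbours and resolution 1. A cluster took a class name from at least 3 markers among its top 50 genes by fold (pseudocount 10 CPM, seen in 10% or more of its cells), with no more markers of another class in its top 10. UMIs were summed per class and library. Shares have exact Clopper-Pearson intervals and ratios exact conditional binomial intervals (scipy 1.17.1), which ignore that UMIs of a cell vary together, and a count of 0 stands at a floor of 3. RSEC molecules are not fully independent observations. Ratios across classes used genes with at least 200 UMIs.

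Members and lists were chosen with earlier results of these data known. Genes named were the 5 highest and 5 lowest ratios in each of the 6 classes with most UMIs, the 10 widest ranges over classes, the 5 most abundant members, paralogues beside their parents, the disease, stalk and 5S members, and up to 4 genes of each other list. Other genes named were chosen after their values were seen, as were the class minimum of 50 cells, the 10% mark and the split by depth. Alternatives changed cell filter (500 genes and 15% mitochondrial UMIs), doublets, clustering, scaling, thinning to 1000 UMIs, and count minimum (1 or 100 UMIs). Start windows come from RefSeq tables of GRCm38.p6, and 2 members on chromosome 18 were left out of them. The stromal class had too few cells. Antibody tags were not used. Some members are counted but not reported here by name, and they are left out of the gene plots.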

Additional observations from a re-analysis of the deposited data

Results flagged for a closer look

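The ribosomal protein share of macrophage-like cells stood apart in sign from the other classes: its log2 ratio of HFD over ND was 0.0013 (interval -0.0083 to 0.0108), while the ratio was below 0 in the other 19 classes. The difference between the classes was not tested, since there was 1 library per diet, and the interval of the macrophage-like value includes 0. Its clusters 17 and 29 were both higher in HFD, at log2 ratios of 0.03 and 0.06.

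Columns with a -ps symbol, which lie outside the members, held UMIs well above a floor of 3: 66384 in the HFD library and 66788 in the ND library. Rpl10-ps3 held 27758 in HFD and 25256 in ND, the most of the 7 columns. Rpl13a-ps1 had 7210 UMIs in HFD and 6038 in ND, beside 14143 in HFD and 15397 in ND for Rpl13a.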

How the results depend on the processing

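The share was lower in HFD in 19 of 20 classes as reported and in 16 of 18 to all 20 classes under the other settings, and 12 to 16 classes held at least 10% in both libraries. The sign turned for macrophage-like cells (range -0.04 to 0.03 on the log2 scale) and for pro- and pre-B cell-like cells (-0.02 to 0.03), each in 2 of 9 settings. It also turned for macrophage-like cells, to -0.02, with median-of-ratios scaling, which is not among these 9. Pairs of member and class that were higher in HFD numbered 1 as reported and 2 with ribosomal protein UMIs as the total, with a minimum of 1 UMI or with the stricter cell filter. Pairs that were lower numbered 3 as reported and 1 with a minimum of 100 UMIs, with doublets kept, with clustering on all genes or with the stricter cell filter. Pairs of list gene and class numbered 32 higher and 14 lower as reported, and 21 higher and 4 lower with a minimum of 100 UMIs, where fewer genes are counted. Across classes, 161 pairs were higher and 356 lower than the mean of classes as reported. At a 2-fold mark 13 were higher, and with ribosomal protein UMIs as the total 29 were higher and 70 lower, since that total takes out the class shares by construction. In cluster 27, 41 members were lower in HFD as reported and 5, against 7.23% of genes, without haemoglobin UMIs in the total, a setting chosen after seeing the data. For the other counts that moved, the cause was not tested. No paired analysis was possible because each diet has 1 library, and for the same reason no replicate could be left out. Depth limits single members in mature neutrophil-like cells, where a cell held 42.0 ribosomal protein UMIs in HFD and 47.3 in ND.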
